A study of Trichoderma reesei with 6 samples.

Results

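The 96 gene models described here were abundant in hyphae of Trichoderma reesei and had nearly equal levels whether the fungus fermented xylose or glucose. They were chosen from 9129 models by their own FPKM values, reads divided by the length of the model and by the total of the library. A member averaged 200 FPKM or more in 6 libraries, and the ratio of its xylose mean to its glucose mean lay between 0.8 and the inverse of 0.8, called the lower and upper limit below. Models on scaffolds 7, 29 and 33 were left out, among them 7 that met both limits. Of 513 models at or above 200 FPKM on the other scaffolds, 202 had a ratio above the upper limit, 215 had one below the lower limit, and the 96 lay between. Because these values chose the members, the equal levels are a description and not a finding.

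The first group of samples is 3 libraries of strain HJ48 after anaerobic fermentation of xylose, and the second is 3 libraries of the same strain after anaerobic fermentation of glucose, all from hyphae aged 4 days. The series title calls the strains recombinant and asks what lets the fungus ferment both sugars, while the sample labels name no introduced gene. Whether the libraries of a sugar came from separate cultures is not stated, so the spread between them may be technical. FPKM values rise in steps of 1 read, and these steps imply totals of 10739898, 11435911 and 11449774 reads for xylose replicates 1, 2 and 3. The implied totals were 8887469, 10102493 and 9803227 reads for glucose replicates 1, 2 and 3.

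Trichoderma reesei is a filamentous ascomycete used to make cellulases. Glucose enters glycolysis directly, whereas fungi usually reduce xylose to xylitol, oxidise that to xylulose and pass it through the pentose phosphate pathway. Many fungal genes for the use of a sugar are switched by that sugar, while transcripts of protein synthesis and core metabolism tend to be abundant on most substrates. Transcripts that hold their level across growth conditions are used as references for measuring others. The table names its models by prediction series, with no symbol or product, and 0 of the 96 names matched an identifier among 9116 genes of the reference annotation of strain QM6a. No function is therefore given to any member, and the members were ordered by level, spread, length and position.

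Members spanned a wide range of high expression but did not reach its top. Their mean levels ran from 202 to 14982 FPKM, with a median of 425. Some abundant models outside the ratio limits were higher, such as estExt_GeneWisePlus.C_10990, below the lower limit, with a mean of 35294 FPKM. By mean level there were 31 members from 200 to 300 FPKM, 22 from 300 to 500, 17 from 500 to 1000, 14 from 1000 to 2000, 6 from 2000 to 5000 and 6 above 5000. The 8 most abundant members held 50.6% of the summed FPKM of all 96. The ratio of xylose to glucose had a median of 0.97, with 40 members above 1 and 56 below it, and 49 members lay between 0.9 and 1.1. Level and ratio were nearly unrelated across members (Spearman rho 0.07 over 96 models that share the same 6 libraries). The rule had cut both values and held the ratio in a narrow band, so nothing is read from this. In the scatter of mean levels the members fill the band set by the ratio limits, with other abundant models above and below it.

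**Figure D1:**
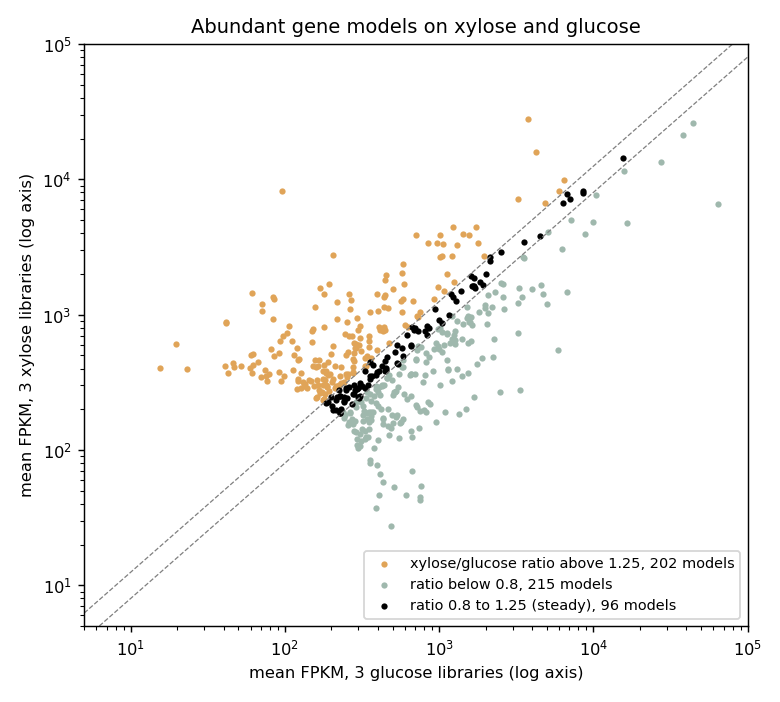
Mean FPKM in the 3 xylose libraries (vertical, log axis) against mean FPKM in the 3 glucose libraries (horizontal, log axis) for the 513 models averaging 200 FPKM or more outside scaffolds 7, 29 and 33; dashed lines mark the lower and upper ratio limits. The 96 members (black) form a band from 202 to 14982 FPKM, with 202 models above it and 215 below it.

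As a body, the members took nearly the same share of each library on either sugar. The ratio limits held each member's means alike, so this closeness follows from the choice of members. Their reads made up 11.9%, 12.2% and 13.1% of the implied total in xylose replicates 1, 2 and 3, against 12.7%, 12.4% and 12.5% in glucose replicates 1, 2 and 3. The mean share was 12.4% ± 0.6 in xylose and 12.5% ± 0.2 in glucose (SD, n = 3 each), and the groups overlapped. The median member had 410, 437 and 452 FPKM in the xylose libraries, against 449, 441 and 451 FPKM in the glucose libraries. Over the same libraries the median of all 9129 models was 14.1, 11.2 and 8.76 FPKM in xylose, against 3.62, 3.90 and 3.36 FPKM in glucose. Shares of a library are relative, so an unchanged amount of a transcript cannot be told apart from a changed amount in a library whose total changed alike.

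The single most abundant member was estExt_Genewise1.C_20662, a model with an implied length of 893 nt on scaffold 2. It had 14293, 12814 and 16011 FPKM in the xylose libraries, against 16026, 14703 and 16043 FPKM in the glucose libraries, where values of a sugar stand, here and below, in the order of replicates 1, 2 and 3. Xylose replicate 2 was the lowest library, xylose replicate 3 lay level with glucose replicates 1 and 3, and the ranges overlapped. Its level averaged 14373 ± 1600.2 FPKM in xylose and 15591 ± 769 in glucose (SD, n = 3 each). Among all models of a library its median rank was 5 in xylose and 7 in glucose.

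Next came 5 members with means from 6531 to 8411 FPKM. gw1.15.378.1 (186 nt, scaffold 15) had 7578, 6851 and 10249.5 FPKM in the xylose libraries, against 7818, 9674 and 8294 FPKM in the glucose libraries. e_gw1.9.287.1 (633 nt, scaffold 9) had 9653, 6113 and 8132 FPKM in the xylose libraries, against 8132, 9139 and 8259 FPKM in the glucose libraries. In both models the 3 xylose libraries spread more widely than the 3 glucose libraries, and all glucose values fell inside the xylose range. e_gw1.1.1802.1 (387 nt, scaffold 1) had 6671, 8217 and 8433 FPKM in the xylose libraries, against 6729.6, 6131 and 7263 FPKM in the glucose libraries. Its xylose replicates 2 and 3 were above every glucose library, while xylose replicate 1 lay among them.

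e_gw1.10.320.1 (378 nt, scaffold 10) was the steadiest of all members by its coefficient of variation (SD over mean) of 3.52% over the 6 libraries. It had 7085, 7228 and 7258 FPKM in the xylose libraries, against 7259, 6674 and 7387 FPKM in the glucose libraries. The xylose libraries differed by 1.02 times from lowest to highest, and glucose replicate 2 was the lowest of the 6. e_gw1.2.36.1 is a long model of 3453 nt on scaffold 2 and received more reads than any other member, from 188696 to 279361 per library. It had 6359, 6628 and 7066 FPKM in the xylose libraries, against 6149, 6629 and 6357 FPKM in the glucose libraries. The groups overlapped, and the coefficient of variation was 4.89%.

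The other 4 of the 10 most abundant members had means from 2398 to 4165 FPKM. fgenesh5_pg.C_scaffold_4000042 (1311 nt, scaffold 4) had 3377, 4387 and 3690.0 FPKM in the xylose libraries, against 4531, 4434 and 4570.2 FPKM in the glucose libraries. All 3 glucose libraries were above all 3 xylose libraries, and its mean level was 3818 ± 517 FPKM in xylose and 4512 ± 70 in glucose (SD, n = 3 each). e_gw1.1.1053.1 (603 nt, scaffold 1) had 3581, 3229 and 3544 FPKM in the xylose libraries, against 3354, 4833 and 2439.7 FPKM in the glucose libraries. Here the xylose libraries lay close together inside a glucose range of 1.98 times, the widest of any member. estExt_GeneWisePlus.C_10038 (358 nt, scaffold 1) had 3456, 2377 and 2911 FPKM in the xylose libraries, against 2751, 2901 and 1867 FPKM in the glucose libraries. estExt_fgenesh5_pg.C_130072 (1235 nt, scaffold 13) had 2353, 2879 and 2762 FPKM in the xylose libraries, against 2570.0, 1694 and 2131 FPKM in the glucose libraries. Both had overlapping groups. In estExt_GeneWisePlus.C_10038 glucose replicate 3 was the lowest library, and in estExt_fgenesh5_pg.C_130072 glucose replicates 2 and 3 were below every xylose library.

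**Figure D2:**
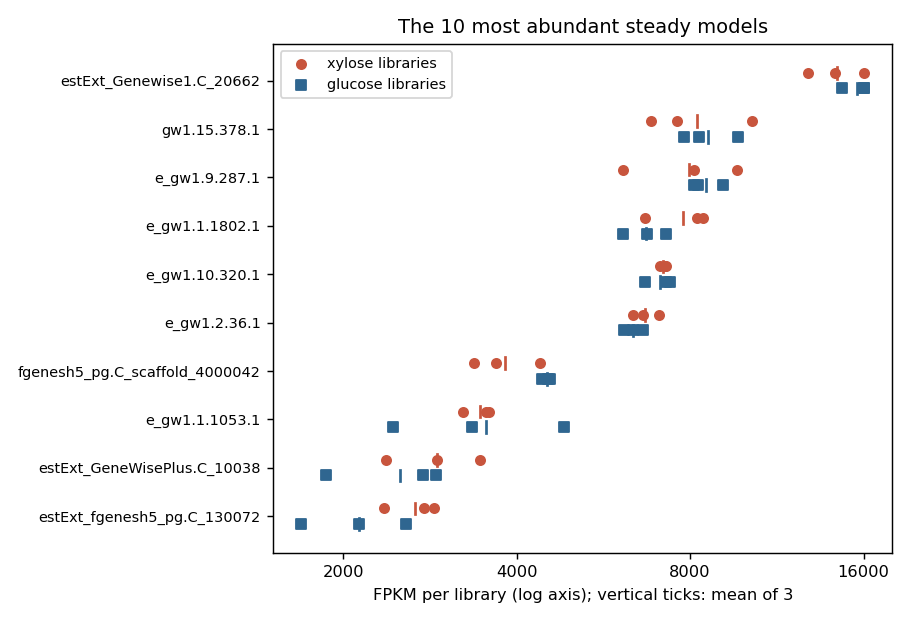
FPKM in each library (horizontal, log axis) for the 10 most abundant members, with xylose libraries as circles above and glucose libraries as squares below and a vertical tick at each mean of 3. The groups overlap in 9 of the 10 models, fgenesh5_pg.C_scaffold_4000042 being the exception, and e_gw1.1.1053.1 has the widest glucose range.

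A further 8 members joined e_gw1.10.320.1 and e_gw1.2.36.1 among the 10 with the smallest coefficient of variation. They lay at quite different levels. estExt_Genewise1.C_20693 (1209 nt, scaffold 2) had 1462, 1688 and 1739.5 FPKM in the xylose libraries, against 1668, 1646 and 1679 FPKM in the glucose libraries, and estExt_Genewise1.C_20452 (3028 nt, scaffold 2) had 1446, 1651 and 1782 FPKM in the xylose libraries, against 1679, 1719 and 1644 FPKM in the glucose libraries. In both, xylose replicate 1 was the lowest library and xylose replicate 3 the highest. e_gw1.8.368.1 (339 nt, scaffold 8) had 727, 706 and 831 FPKM in the xylose libraries, against 717, 731 and 741 FPKM in the glucose libraries, with only xylose replicate 3 set apart from the other 5.

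The remaining 5 of the steadiest members had means from 206 to 302 FPKM. fgenesh5_pg.C_scaffold_1001005 (1575 nt, scaffold 1) had 307, 284 and 294 FPKM in the xylose libraries, against 306, 296 and 322 FPKM in the glucose libraries. estExt_fgenesh5_pg.C_220144 (3804 nt, scaffold 22) had 257, 231 and 235 FPKM in the xylose libraries, against 255, 253 and 248 FPKM in the glucose libraries. For these models the coefficient of variation was 4.36% and 4.51%, with overlapping groups. fgenesh5_pg.C_scaffold_14000027 (795 nt, scaffold 14) had 219.8, 194 and 218 FPKM in the xylose libraries, against 206, 203 and 201 FPKM in the glucose libraries. estExt_GeneWisePlus.C_270015 (1398 nt, scaffold 27) had 222, 228 and 235 FPKM in the xylose libraries, against 252, 230.2 and 247 FPKM in the glucose libraries. estExt_fgenesh5_pg.C_240089 (1453 nt, scaffold 24) had 203, 185 and 207 FPKM in the xylose libraries, against 203, 222 and 214 FPKM in the glucose libraries. Each of these 3 models had overlapping groups, and their coefficients of variation ran from 4.86% to 6.05%.

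Across all 96 members the coefficient of variation over the 6 libraries ran from 3.52% to 28.8%, with a median of 12.1%. It was under 10% in 25 members and over 20% in 6. The highest library exceeded the lowest by 1.11 to 1.98 times, with a median of 1.39 times, and by more than 1.5 times in 25 members. Counting error was small beside this spread. A member had between 504 and 279361 reads in a library, and at its lowest library the counting error was 1.49% for the median member and at most 4.45%. Each of the 96 members varied more than its own counting error at its lowest library.

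Several members were steady between the sugars and uneven within one. The widest xylose range belonged to e_gw1.16.102.1 (1302 nt, scaffold 16), which had 368, 193 and 187 FPKM in the xylose libraries, against 246, 238 and 195 FPKM in the glucose libraries. estExt_fgenesh5_pg.C_160215 (810 nt, scaffold 16) had 381, 263 and 219 FPKM in the xylose libraries, against 255, 274 and 221 FPKM in the glucose libraries, and e_gw1.1.1162.1 (186 nt, scaffold 1) had 435, 252 and 253 FPKM in the xylose libraries, against 318, 322 and 276 FPKM in the glucose libraries. In these 3 models xylose replicate 1 stood above all 5 other libraries, by itself. The other 2 of the 5 widest on xylose went different ways. estExt_fgenesh5_pg.C_50028 (1161 nt, scaffold 5) had 662, 977 and 1101 FPKM in the xylose libraries, against 984, 1081 and 923 FPKM in the glucose libraries, so that xylose replicate 1 was the lowest library. estExt_Genewise1.C_50855 (540 nt, scaffold 5) had 1606, 1593 and 2548 FPKM in the xylose libraries, against 1574, 1869 and 1399.8 FPKM in the glucose libraries, so that xylose replicate 3 was the highest.

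The 5 widest glucose ranges were those of e_gw1.1.1053.1, estExt_GeneWisePlus.C_10038 and 3 further members. estExt_fgenesh1_pm.C_210034 (732 nt, scaffold 21) had 1016, 1319 and 1448 FPKM in the xylose libraries, against 1236, 1002 and 1612 FPKM in the glucose libraries, with glucose replicate 3 the highest library and glucose replicate 2 the lowest. e_gw1.1.2118.1 (342 nt, scaffold 1) had 470.5, 517 and 387 FPKM in the xylose libraries, against 509, 491 and 328 FPKM in the glucose libraries, with glucose replicate 3 the lowest. fgenesh5_pg.C_scaffold_21000119 (192 nt, scaffold 21) had 725, 615 and 773 FPKM in the xylose libraries, against 696, 1077 and 722 FPKM in the glucose libraries, with glucose replicate 2 the highest. Which glucose library stood out thus differed among these 5 models, which were picked for their wide ranges. How uneven a member was in xylose told little of how uneven it was in glucose (Spearman rho 0.01 between the 2 coefficients of variation, over 96 models in the same libraries).

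**Figure D3:**
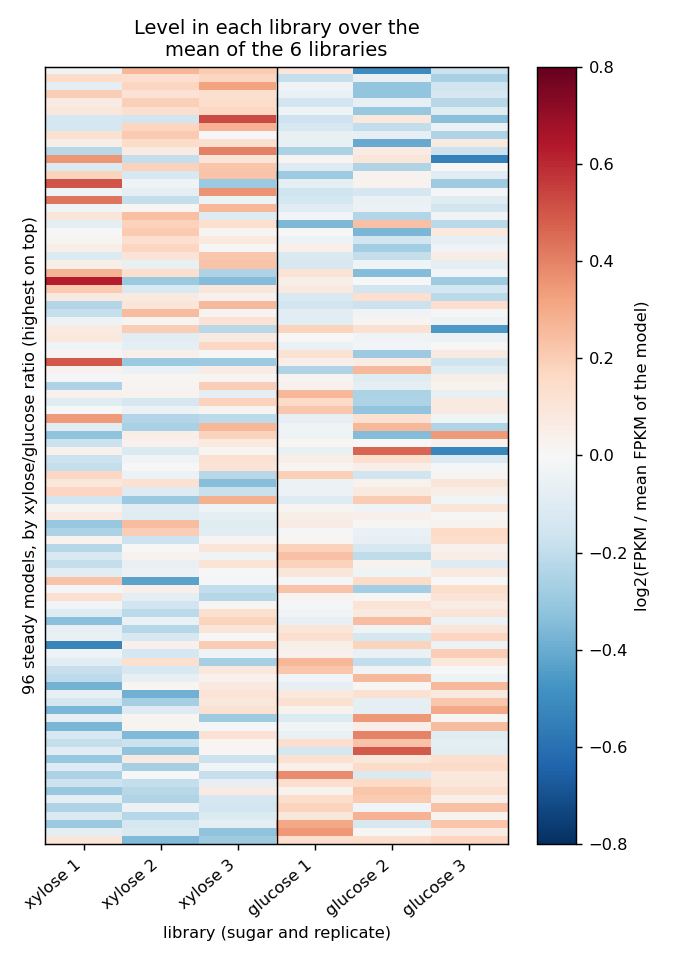
Each row is 1 of the 96 members, ordered by its xylose/glucose ratio with the highest on top, and each column a library, xylose left of glucose; colour gives log2 of the FPKM over the mean of the model's 6 libraries. Single strongly coloured cells, such as the xylose replicate 1 value of e_gw1.16.102.1 (368 FPKM against a mean of 238), mark members that were uneven within a sugar.

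The spread of the members within a sugar, which the choice of members did not use, was close in size to that of other abundant models. Over the 3 xylose libraries the SD of log2(FPKM + 1) had a median of 0.16 in the members, 0.18 in abundant models above the upper ratio limit, 0.18 in those below the lower limit and 0.31 in all 7766 tested models, those averaging 1 FPKM or more. Over the 3 glucose libraries the medians were 0.14, 0.16, 0.12 and 0.18 in the same order. The interquartile ranges of the 3 abundant sets overlapped in each sugar, and no test was made of these differences. The members' xylose median was 0.12 without replicate 1, 0.15 without replicate 2 and 0.11 without replicate 3. The members' glucose median was 0.14 without replicate 1, 0.06 without replicate 2 and 0.09 without replicate 3. These are SDs over 2 libraries, which tend to be smaller than SDs over 3, so a drop alone does not single out a library.

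**Figure D4:**
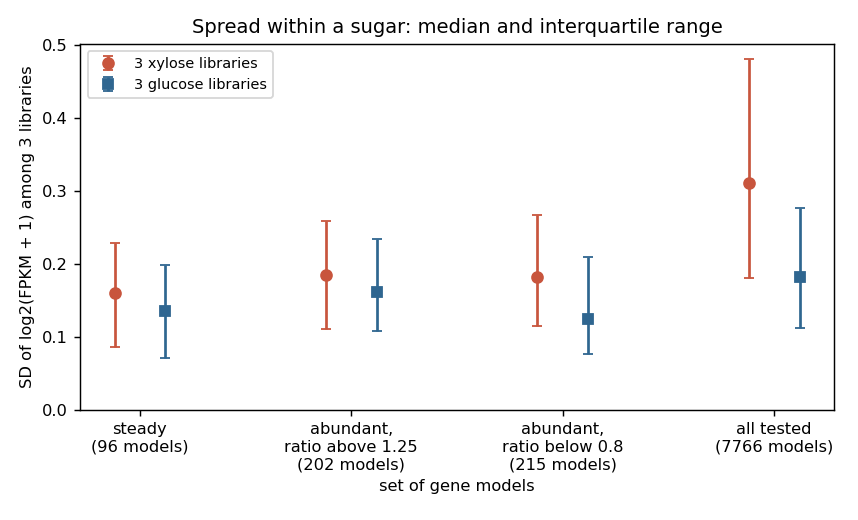
SD of log2(FPKM + 1) among the 3 libraries of a sugar, as the median (point) and interquartile range (bar) over the models of each set, with xylose left of glucose. The members sit at 0.16 in xylose and 0.14 in glucose, within the ranges of the other abundant sets, and all tested models have higher medians of 0.31 and 0.18.

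Between the xylose libraries the order of levels in the members was like that in other abundant models. Replicate 1 was below replicate 3 in 63 of the 96 members (65.6%), with a median log2 difference of -0.08. It was below replicate 3 in 128 of 202 abundant models above the upper ratio limit (63.4%) and in 158 of 215 below the lower limit (73.5%). Over all 7766 tested models it was below replicate 3 in only 22.9%, with a median log2 difference of 0.44. These shares were not tested. Within xylose, replicate 3 held the highest value of 49 members, replicate 2 of 23 and replicate 1 of 24. In glucose the highest value fell to replicate 1 in 31 members, to replicate 2 in 37 and to replicate 3 in 28. The lowest glucose value fell to replicate 1 in 25 members, to replicate 2 in 45 and to replicate 3 in 26. Glucose replicate 2 was thus most often the highest and most often the lowest of its sugar. The lowest xylose value fell to replicate 1 in 41 members, to replicate 2 in 37 and to replicate 3 in 18.

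Few members had xylose and glucose levels further apart than the spread between replicates. The ranges of the 3 xylose and 3 glucose libraries overlapped in 81 members, and they did not overlap in 7 that were higher and 8 that were lower in xylose. Ranges did not overlap in 81.4% of all 7766 tested models. A linear model on log2(FPKM + 1), fitted over all tested models with limma, called 2 members at a Benjamini-Hochberg adjusted p under 0.05, both higher in xylose, against 78.9% of all tested models in either direction, 64.8% higher and 14.1% lower. By limma 0 members were called lower, and 4 members had an unadjusted p under 0.05, 2 of them higher and 2 lower, against 80.2% of all tested models. The ratio limit kept these differences small, so nothing is read from the counts.

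Both called members were near the upper ratio limit. e_gw1.9.321.1 (456 nt, scaffold 9) had 443, 439 and 450.5 FPKM in the xylose libraries, against 351, 385 and 334 FPKM in the glucose libraries, a log2 fold change of 0.32 (SE 0.12). e_gw1.24.41.1 (1572 nt, scaffold 24) had 255, 241 and 243 FPKM in the xylose libraries, against 215, 178 and 203 FPKM in the glucose libraries, a log2 fold change of 0.31 (SE 0.13). In each, the 3 xylose libraries lay close together above the 3 glucose libraries. Both calls were lost with the replicate block (limma adjusted p = 0.0779 and 0.0895) and with quantile normalization, where the log2 fold changes were 0.25 and 0.13 (limma adjusted p = 0.0758 and 0.400). With the median of ratios both models were called lower, at -0.89 and -0.90. The call of e_gw1.9.321.1 held without xylose replicate 1 and without glucose replicate 2 and was lost without each of the other 4 libraries, while that of e_gw1.24.41.1 was lost whichever library was left out.

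The number of called members also moved with single libraries. Without xylose replicate 1 there were 3 members called higher and 2 lower, against 77% of all tested models called in either direction. Without xylose replicate 2 there were 0, against 74.3% of all models, and without xylose replicate 3 there was 1 lower, against 81.7%. Without glucose replicate 1 there was 1 higher, against 73.4% of all models. Without glucose replicate 2 there were 2 higher and 2 lower, against 75.1%, and without glucose replicate 3 there were 0, against 72.7%.

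The log2 fold changes of the members on FPKM as deposited ran from -0.33 to 0.34, with SEs from 0.12 to 0.24. The 95% confidence interval had a half-width of 0.32 for the median member and 0.26 to 0.53 over the 96, about the size of the ratio limits themselves. The choice of members placed these intervals around 0, so their width describes the precision and their position shows nothing further. The width draws on the spread of other models at a similar level as well as on that of the member itself. Each interval lay within a 2-fold change, 81 lay within 1.5-fold and 4 lay wholly within the ratio limits. With the median of ratios, described below, the members' ratios were 0.344 to 0.55.

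Models on either side of the limits differed little. Just inside the limit of 200 FPKM were estExt_GeneWisePlus.C_180344 and fgenesh1_pm.C_scaffold_8000086, with means of 202 and 204 FPKM, and just outside were estExt_fgenesh5_pg.C_90268 and estExt_Genewise1.C_190080, with 197 and 196 FPKM. At the lower limit the members estExt_GeneWisePlus.C_240037 and estExt_fgenesh5_pg.C_80122 had ratios of 0.803 and 0.805. The models estExt_Genewise1.C_40441 and estExt_GeneWisePlus.C_40386 had 0.799 and 0.798 and were not members. At the upper limit the members estExt_fgenesh5_pg.C_130072 and e_gw1.9.321.1 had ratios of 1.24996 and 1.246, and estExt_fgenesh5_pg.C_500010 and estExt_fgenesh5_pg.C_10335 fell outside with 1.251 and 1.266. Of the 96 members, 70 met the rule on the remaining 5 libraries whichever library was left out, and their ratios ran from 0.829 to 1.18.

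Models were also chosen by the same rule on 5 libraries, and the sixth was then compared with the mean of the other sugar. The rule had already matched that mean to the remaining libraries of the sixth library's own sugar. The counts therefore largely show how alike the libraries of a sugar were, and they are no separate check on the equal levels. Relative to the glucose mean, xylose replicate 1 lay within the ratio limits in 68 of 103 models chosen without it, xylose replicate 2 in 71 of 96 and xylose replicate 3 in 77 of 101. Glucose replicates 1, 2 and 3 lay within those limits of the xylose mean in 80 of 98, 69 of 95 and 74 of 100 models. The same libraries lay within the limits of their own sugar's other libraries in 77, 79 and 80 of those models for xylose replicates 1, 2 and 3, and in 90, 71 and 92 for glucose replicates 1, 2 and 3. The own-sugar comparison rests on 2 libraries and the other on 3, so the counts are not strictly alike. Xylose replicate 1 was below 0.8 times the glucose mean in 23 models and above the upper limit in 12.

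The ranks of the members within a library, which no scaling constant changes, differed between the sugars in a direction that was not the same at every level. All 6 members above 5000 FPKM and 13 of 14 from 1000 to 2000 FPKM ranked higher in xylose than in glucose by their median rank. Ranks were mixed in other classes, with 9 higher and 7 lower in xylose of 17 members from 500 to 1000 FPKM and 4 higher and 2 lower of 6 from 2000 to 5000 FPKM. From 200 to 300 FPKM, 26 of 31 members ranked lower in xylose, with median ranks of 474 in xylose and 435 in glucose. From 300 to 500 FPKM, 16 of 22 ranked lower in xylose, with 316.5 in xylose and 290.5 in glucose. The rule held the FPKM of members alike, so these ranks also follow how many other models lay above them. Models at or above 1000 FPKM numbered 125, 130 and 132 in xylose replicates 1, 2 and 3, against 139, 136 and 131 in glucose replicates 1, 2 and 3. Models at or above 200 FPKM numbered 612, 541 and 539 in xylose replicates 1, 2 and 3, against 509, 510 and 495 in glucose replicates 1, 2 and 3. Of the members, 20 were among the 100 most abundant models of every library and 77 among the 500 most abundant, and the lowest rank of any member was 699.

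Whether the members count as steady rested on the scaling of the libraries. On FPKM as deposited their median log2 fold change was -0.04, while the median of all tested models was 1.102. All 96 members were below that median, as the upper ratio limit ensured. When libraries were scaled by the median of ratios over models above 0 in every library, which sets the typical model level between the libraries, the members' median became -1.25 and all 96 were called lower in xylose, against 73.4% of all tested models in either direction, 36% lower and 37.4% higher. Their ratios of xylose to glucose then ran from 0.344 to 0.55, and 0 members stayed within the limits. This scaling divides each library by a constant, so members held close together by the rule all moved down nearly alike. Nothing is read from the count called lower. With quantile normalization the median was -0.03, and 83 members stayed within the limits, with 4 called higher and 8 lower, against 67.7% of all tested models called. This scaling also levels the typical model, whose median was -0.004, and 52 of the 96 members were below it. Rescaled to an equal sum of values per library (TPM), the median was 0.019, with 90 members within the limits and 5 called higher, against 79.2% of all tested models called. The members were thus near 0 as a share of each library and with quantile normalization, and below 0 with the median of ratios.

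**Figure D5:**
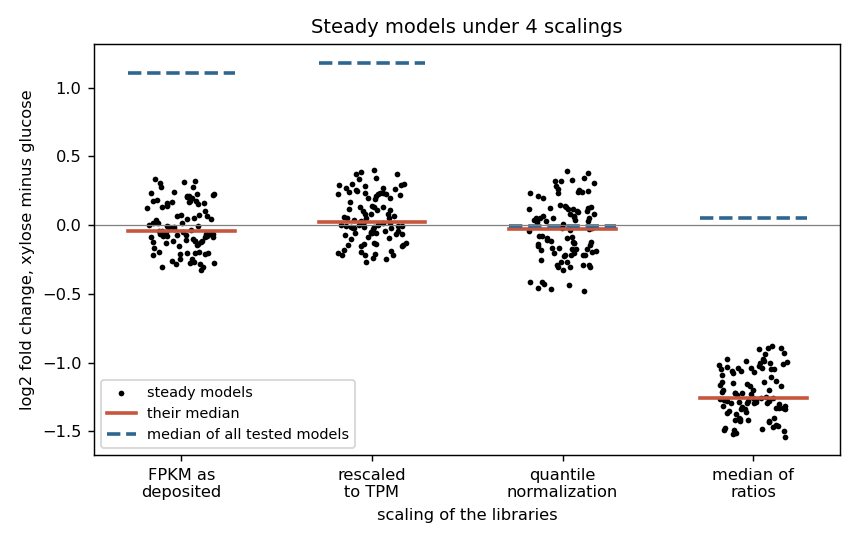
Log2 fold change, xylose minus glucose, of each of the 96 members (points) under 4 scalings of the libraries, with their median (solid line) and the median of all tested models (dashed line). The members centre near 0 under the first 3 scalings and at -1.25 with the median of ratios.

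Log2 ratios between members do not depend on a scaling constant per library, though they do change with quantile normalization. For each pair of members the SD of their log2 ratio over the libraries was taken, and averaged over a member's pairs. This had a median of 0.25 over all 6 libraries in the 96 members, against 0.98 in the other 417 abundant models taken among themselves, a gap that the choice of members by their ratio enforces. Within xylose alone it was 0.21 in members and 0.27 in the others, and within glucose alone 0.19 in members and 0.22 in the others. The lowest values belonged to e_gw1.10.320.1 and estExt_GeneWisePlus.C_270015, both at 0.19 over 6 libraries, and the highest to e_gw1.16.102.1 at 0.42.

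The rule did not use the implied lengths directly. FPKM divides reads by length, however, so a short model reaches the level limit with fewer reads. Members were 186 to 6208 nt long, with a median of 1052 nt, against 1092 nt in abundant models above the upper ratio limit, 1055 nt in those below the lower limit and 1315 nt in all tested models. Models under 400 nt made up 14.6% of members, against 9.90% and 7.91% of the other abundant sets and 5.67% of all tested models. Over all 513 abundant models, members included, the share was 9.94%. No test was made of these shares. The 14 short members had a median coefficient of variation over the 6 libraries of 16.3%, and the 12 members over 2000 nt had one of 11.1%. Longer members tended to vary less (Spearman rho -0.33 over 96 models in the same libraries).

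With scaffolds 7, 29 and 33 left out by the rule, members were spread over 26 scaffolds. Scaffold 1, the largest in models, held 10 members among 55 abundant and 1025 models in all. Scaffold 5 held 8, and scaffolds 2, 3, 4, 9 and 14 held 7 each. Of these, scaffold 14 had 7 members among 19 abundant models, scaffold 3 had 7 among 22 and scaffold 2 had 7 among 37. Scaffold 12 had 15 abundant models and 0 members, and scaffold 11 had 1 member among 21 abundant models. Over all scaffolds not left out there were 96 members among 513 abundant models. These counts per scaffold were not tested. The closest names were e_gw1.9.287.1 and e_gw1.9.296.1 on scaffold 9, followed there by e_gw1.9.321.1, with numbers 9 and 25 apart. No source used here says whether such numbers follow the order of genes.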

How the data were processed

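RNA was measured in 3 xylose and 3 glucose libraries of hyphae, taken up in Trizol per the labels' protocols. The authors deposited 1 table of FPKM, and each library has its own column. The submitters' processing notes list HTSeq 0.6.1, TopHat2 2.0.12 and Bowtie2 2.2.3 without saying what each did. For the genome build, annotation and strand setting, nothing is given in the sources used here. Reads of overlapping or near-identical models cannot be told apart.

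The labels' descriptions name the column of each sample. Library totals, reads and model lengths were worked out from the steps between FPKM values. Whole reads and a whole length of 60 to 20000 nt were found for 9008 of 9010 models above 0, within 1e-05 reads plus a relative 3e-09, and they summed to 99.1% to 99.3% of the totals. A length is the smallest solution. Without molecular identifiers, reads are not independent molecules, and counting error covers sampling only.

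log2(FPKM + 1) was fitted by sugar with limma 3.58.1 (R 4.3.3, eBayes with a trend, two-sided) over 7766 models averaging 1 FPKM or more. The p-values were Benjamini-Hochberg adjusted at 0.05. All 96 members passed the filter. A fold change on this scale is xylose minus glucose. Scripts were tested on simulated data. Other measures used Python 3.11.15 and SciPy 1.17.1. The members and lists were chosen with earlier results of these data known.

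The named members were the 10 with the highest mean, the 10 with the smallest coefficient of variation, the 5 with the widest range within each sugar, and at most 2 called in each direction. For each limit, the 2 models nearest on each side were named. Models named for other reasons were chosen after their values were seen. Alternatives were pseudocounts of 0.1 and 5, filters at 0 and 5 FPKM, 3 other scalings, a replicate block, a threshold of 0.01, other limits of the rule, and leaving out each library.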

Additional observations from a re-analysis of the deposited data

How the results depend on the processing

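The number of members called by limma was 2, and it was also 2 with pseudocounts of 0.1 and 5 and a filter at 5 FPKM. It was 7 with no filter (4 higher, 3 lower, against 71.6% of all models called), 12 with quantile normalization (4 higher, 8 lower, against 67.7%), 5 after rescaling to TPM (5 higher, against 79.2%), 96 with the median of ratios (0 higher, 96 lower, against 73.4%), and 0 at a threshold of 0.01 (0 higher, against 69.1%). Leaving out each library gave 0 to 5 called, 0 to 3 higher and 0 to 2 lower, against 72.7% to 81.7% of all models. The replicate block gave 0 called and 0 higher, against 78.6% of all models. The labels do not say that equal replicate numbers share a culture or day, and libraries with equal numbers deviated from their group means with correlations of 0.001, -0.072 and 0.073, and the samples were taken as unpaired. The members' median log2 fold change was -0.04, and it was -1.25 with the median of ratios, 0.019 after rescaling to TPM and -0.043 to -0.0049 without each library. The called models e_gw1.9.321.1 and e_gw1.24.41.1 reversed to -0.89 and -0.90 with the median of ratios, which moved all members down nearly alike. The rule was met by 55 models with the median of ratios, of which 0 were members, by 175 and 53 at mean limits of 100 and 400 FPKM, by 51 and 176 at ratio limits of 0.9 and 1.5 (each with its inverse), and by 95 to 103 without each library, 86 to 91 of them members. The median SD within xylose was 0.16, 0.32 with the median of ratios and 0.11 to 0.16 without each library, and within glucose it was 0.06 to 0.14. An SD over the 2 libraries left in a sugar tends to be smaller than an SD over 3. The causes were not tested. With 3 libraries a sugar, the spread between libraries and not the reads sets the precision of these models. The limma SE of a member also draws on the spread of other models at a similar level.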

Other observations

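The models that met the same limits after scaling by the median of ratios were 55 others, and 0 of them were members. On FPKM as deposited their ratio of xylose to glucose ran from 1.84 to 2.78 with a median of 2.22, which follows from choosing them after that scaling. The size factors of that scaling were 1.85, 1.498 and 1.28 for xylose replicates 1, 2 and 3, against 0.662, 0.679 and 0.630 for glucose replicates 1, 2 and 3.

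Members came from 8 of the 9 prediction series in the model names. The series estExt_Genewise1 held 14 members, 14.6% of them, against 9.16% of abundant and 4.73% of all models. The series estExt_fgenesh1_pm held 2.08% of members, against 5.85% of abundant models, and kg2 held 0 members and 10 abundant models. No test was made of these shares.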
